A study of Mus musculus with 12 samples.

Results

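The genes described here encode the main chaperones of the cytosol and of the mitochondrial matrix, with the transcription factor and the cochaperone that go with them. They are Hspa1a, Hspa1b, Hspa8, Hsph1, Hspd1, Hspe1, Dnaja1, Dnajb1, Hsf1 and Bag3, 10 genes in all. Members were taken by gene symbol from the annotation of the array, whose symbols are cut to 7 characters, and 9 of the 10 had a row of values. No row carried the symbol Hspa1b, so that gene was not analysed here. The 9 genes were set against all 19432 genes that could be named. The whole gastrocnemius (a calf muscle) or the heart was taken from tumour-bearing mice, injected with C26 cells under the skin of the right upper flank, and from non-tumour-bearing (NTB) mice injected with RPMI/PS medium. C26 is a mouse colon carcinoma line widely used to bring on the wasting of cancer cachexia. All animals were Balb/c-DBAj hybrids aged 10 to 11 weeks, the hearts were from another cohort than the limb muscles, and how long tumours grew is not given in the sources used here. Each of the groups C26 gastrocnemius, NTB gastrocnemius, C26 heart and NTB heart had 3 biological replicates, 1 array each.

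HSP70 proteins bind stretches of unfolded protein and release them in a cycle driven by ATP. J proteins bring substrates to HSP70 and start ATP hydrolysis, while HSP110 and BAG proteins exchange the nucleotide so that the substrate is let go. In mitochondria the HSP60 chamber and its HSP10 lid fold imported proteins. HSF1 is held inactive by chaperones, and when unfolded proteins take these up it binds heat shock elements, inverted repeats of the letters GAA, and turns chaperone genes on. In muscle, BAG3 and its HSP70 partners remove damaged proteins of the contractile apparatus.

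The promoters of the members bear on this because HSF1 is itself one of them. RefSeq windows (build GRCm38.p6, from 250 bases before to 50 bases after the annotated start) were found for 8 of the 10 genes, 13 windows in all. Hspa8 and Hsf1 had no window. The search took 3 alternating units, GAANNTTCNNGAA or its reverse complement TTCNNGAANNTTC, and 2 units, GAANNTTC or TTCNNGAA, each of which is its own reverse complement and lies inside the longer motif. The 3-unit motif was in a window of Hspd1, Hspe1 and Hsph1, 3 of the 8 genes, against 0.662% of all 27025 genes with a window (0.603% of the 32851 windows). The 2-unit motif was in a window of 7 of the 8 genes, with Dnajb1 the exception, against 17.0% of all genes (15.1% of windows). The windows of Hspe1, Hsph1 and Hspa1a are shown because these genes rose in C26 gastrocnemius, with every base of a 2-unit or 3-unit match in capitals. They lie at chr1:55087898-55088197 on the plus strand, chr5:149636287-149636586 on the minus strand and chr17:34972107-34972406 on the minus strand.
Hspe1: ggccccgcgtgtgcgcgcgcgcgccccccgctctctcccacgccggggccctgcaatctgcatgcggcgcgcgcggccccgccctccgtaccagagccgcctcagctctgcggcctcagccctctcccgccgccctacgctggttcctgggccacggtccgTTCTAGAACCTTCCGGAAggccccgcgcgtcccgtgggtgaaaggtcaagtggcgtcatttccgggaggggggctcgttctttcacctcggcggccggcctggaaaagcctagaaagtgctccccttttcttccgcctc
Hsph1: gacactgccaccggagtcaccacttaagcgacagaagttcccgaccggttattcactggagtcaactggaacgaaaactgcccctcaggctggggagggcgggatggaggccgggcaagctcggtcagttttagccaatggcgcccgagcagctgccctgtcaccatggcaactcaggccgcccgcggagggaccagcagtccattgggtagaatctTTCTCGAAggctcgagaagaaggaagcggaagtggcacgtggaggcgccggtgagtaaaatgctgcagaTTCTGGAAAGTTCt
Hspa1a: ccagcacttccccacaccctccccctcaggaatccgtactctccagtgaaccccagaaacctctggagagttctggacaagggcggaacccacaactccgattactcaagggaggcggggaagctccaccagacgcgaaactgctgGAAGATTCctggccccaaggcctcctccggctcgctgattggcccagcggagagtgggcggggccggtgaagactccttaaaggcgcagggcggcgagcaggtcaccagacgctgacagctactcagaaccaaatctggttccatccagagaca

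Hspd1 and Hspe1 stand head to head on chromosome 1, and 285 bases of the Hspe1 window are also in a window of Hspd1. The capitals of Hspe1 run over 18 bases and begin 89 bases before its start, and the same bases, read on the other strand, begin 144 bases before the start of that Hspd1 window. In the Hsph1 window shown the 2-unit match begins 33 bases before the start and the 3-unit match 36 bases after it. From the start of the other Hsph1 window the same matches begin 54 bases before and 15 bases after. The windows of Hspa1a and Hspa1b differed at 4 of 300 bases, and both hold the same 2-unit match 104 bases before the start. These matches describe the letters only.

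In C26 gastrocnemius 4 of the 9 genes rose and 0 fell, against 6.45% of all genes that rose and 5.44% that fell. The genes that rose were the inducible HSP70 gene Hspa1a, the HSP110 gene Hsph1, the HSP10 gene Hspe1 and Hsf1 itself. "Rose", "fell" and "called" mean an adjusted p under 0.05 in limma (Benjamini-Hochberg over all 19432 genes). Values are log2 expression, so that 1 unit is a doubling of signal, changes are C26 minus NTB ± the model's standard error, and n = 3 arrays per group throughout. At an unadjusted p under 0.05, 6 genes were higher and 0 lower, against 11.7% and 9.90% of all genes. All 9 changes were positive, with a median of 0.54, against a median of -0.00 over all genes. All 3 C26 arrays lay above all 3 NTB arrays for 5 of the 9 genes, against 9.96% of all genes.

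**Figure D1:**
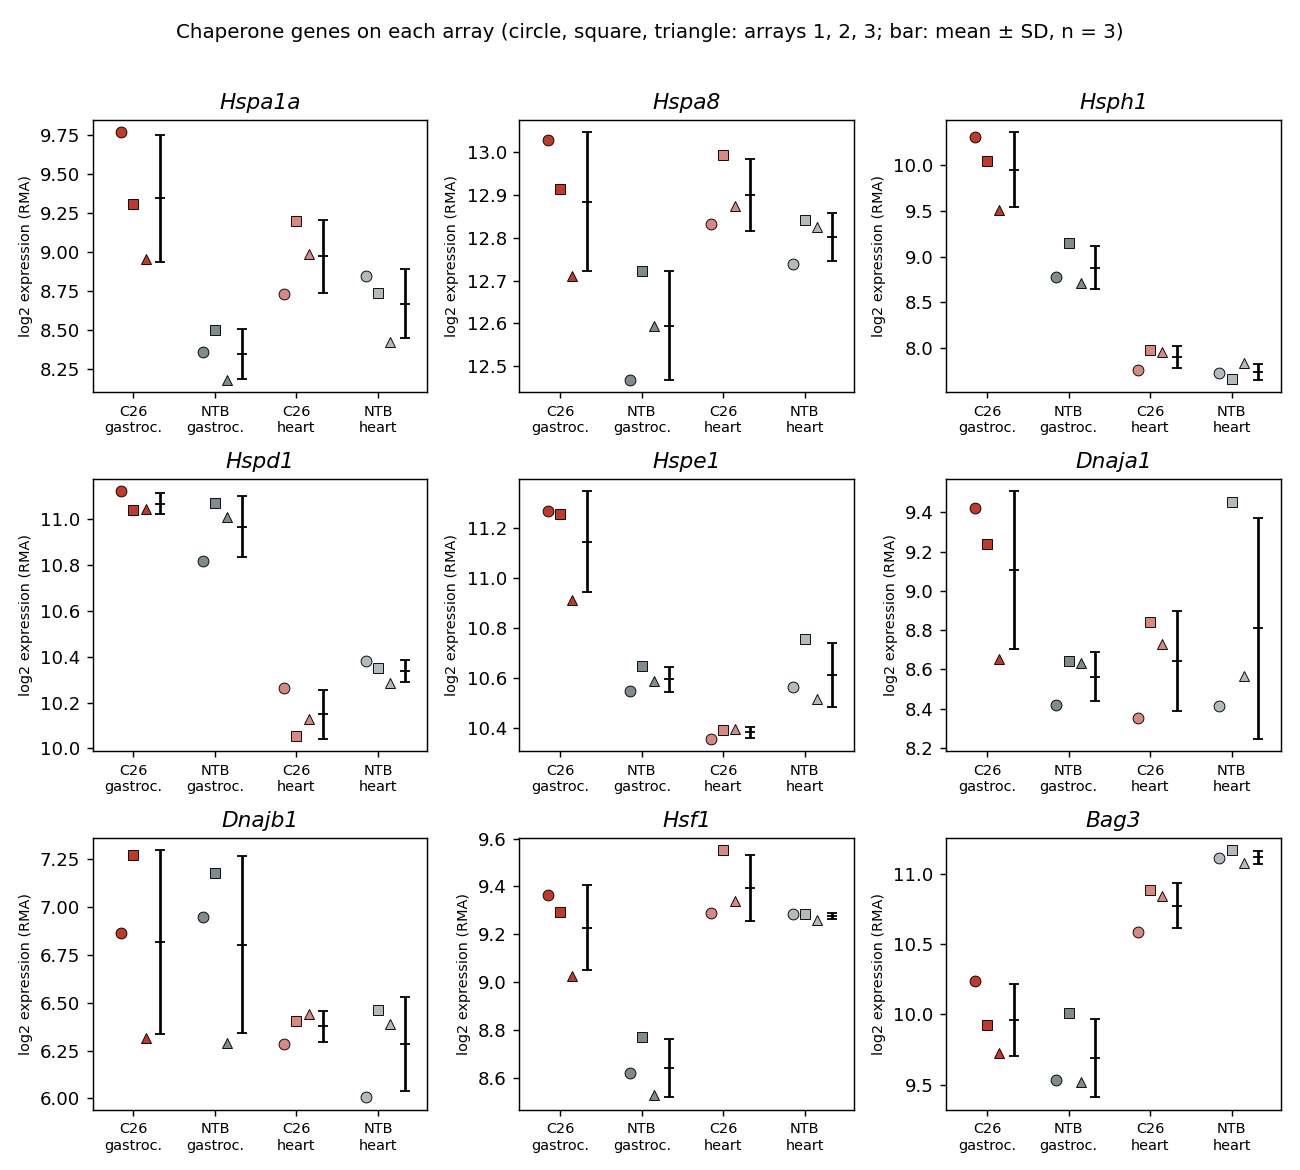
Log2 expression of the 9 genes on each of the 12 arrays, with arrays 1, 2 and 3 of a group as circle, square and triangle and the mean ± SD (n = 3) as a bar beside them; each panel has its own vertical scale. The C26 gastrocnemius arrays of Hspa1a, Hsph1, Hspe1 and Hsf1 lie above the NTB gastrocnemius arrays, while the heart groups lie closer together.

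Among the HSP70 and HSP110 genes the inducible ones rose. Hsph1, which exchanges the nucleotide of HSP70, had 10.31, 10.04 and 9.51 in C26 gastrocnemius arrays 1 to 3, against 8.78, 9.15 and 8.71 in NTB gastrocnemius arrays 1 to 3. The groups did not overlap, and the change was 1.08 ± 0.18 (2.11-fold, adjusted p = 0.00082, limma). Hspa1a, which is scarce in unstressed cells and induced by heat, had 9.77, 9.31 and 8.96 in C26 gastrocnemius, against 8.36, 8.50 and 8.18 in NTB gastrocnemius. Again the lowest C26 array lay above the highest NTB array, with a change of 0.99 ± 0.19 (1.99-fold, adjusted p = 0.00235, limma). Hspa1a and Hspa1b are near-identical copies, so the signal of the row cannot be divided between them. Hspa8 encodes HSC70, the form present in all cells. It had 13.03, 12.91 and 12.71 in C26 gastrocnemius, against 12.47, 12.72 and 12.59 in NTB gastrocnemius. C26 array 3 lay below NTB array 2, and the change of 0.29 ± 0.10 was not called (adjusted p = 0.0965, limma, 95% interval 0.07 to 0.51), though it was when genes of low values were filtered out before the adjustment (adjusted p = 0.0416).

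Of the mitochondrial pair, Hspe1 was called in gastrocnemius and Hspd1 was not. Hspe1, the HSP10 lid, had 11.27, 11.26 and 10.91 in C26 gastrocnemius, against 10.55, 10.65 and 10.59 in NTB gastrocnemius. The groups were apart, and the change was 0.55 ± 0.12 (1.46-fold, adjusted p = 0.00499, limma). Hspd1, the HSP60 chamber, had 11.12, 11.04 and 11.04 in C26 gastrocnemius, against 10.82, 11.07 and 11.01 in NTB gastrocnemius. Its groups overlapped, and the change of 0.10 ± 0.11 was not called (adjusted p = 0.711, limma, 95% interval -0.12 to 0.33). The log2 value of Hspe1 minus that of Hspd1 was 0.15, 0.22 and -0.13 in C26 gastrocnemius and -0.27, -0.42 and -0.42 in NTB gastrocnemius. This difference between the genes was larger by 0.45 in C26 gastrocnemius, without overlap, and the exact two-sided permutation test over samples gave p = 0.1, the smallest that 3 against 3 arrays allow. In heart it was 0.10, 0.34 and 0.27 in C26 arrays and 0.18, 0.41 and 0.23 in NTB arrays (exact p = 0.8). This pair was chosen for the comparison after its values had been seen. The separation in gastrocnemius also depends on the Hspd1 row used. Another row of Hspd1 had 10.26, 10.71 and 10.40 in C26 gastrocnemius, against 9.83, 10.62 and 10.54 in NTB gastrocnemius. With that row the differences between the genes overlap between C26 and NTB gastrocnemius.

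The 2 J proteins were not called in gastrocnemius. Dnaja1, the farnesylated J protein of the cytosol, had 9.42, 9.24 and 8.66 in C26 gastrocnemius, against 8.42, 8.64 and 8.63 in NTB gastrocnemius. Its groups were separated only by the narrow gap between C26 array 3 and NTB array 2. The change of 0.54 ± 0.24 had an adjusted p of 0.207 (limma). It was 0.125 with the replicate number as a block, 0.229 with the gastrocnemius arrays fitted alone and 0.0358 with array weights. With the block within each muscle, a setting added after seeing the data, it was 0.0486. Dnajb1, the heat-inducible J protein, had 6.86, 7.27 and 6.32 in C26 gastrocnemius, against 6.94, 7.18 and 6.29 in NTB gastrocnemius. The arrays of both groups were interleaved (0.01 ± 0.24, adjusted p = 0.989, limma), and the interval of the difference ran from -0.49 to 0.52.

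Hsf1 rose while Bag3 was not called. Hsf1, the heat shock transcription factor, had 9.36, 9.29 and 9.03 in C26 gastrocnemius, against 8.62, 8.77 and 8.53 in NTB gastrocnemius. Every C26 array lay above every NTB array, and the change was 0.59 ± 0.12 (1.50-fold, adjusted p = 0.00466, limma). Bag3 had 10.23, 9.93 and 9.72 in C26 gastrocnemius, against 9.53, 10.01 and 9.52 in NTB gastrocnemius. NTB array 2 lay within the C26 range, and the change of 0.27 ± 0.15 was not called (adjusted p = 0.357, limma). With the gastrocnemius arrays fitted alone the calls of Hspa1a and Hsph1 remained and those of Hspe1 (adjusted p = 0.0734, limma) and Hsf1 (adjusted p = 0.0802) were lost.

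**Figure D2:**
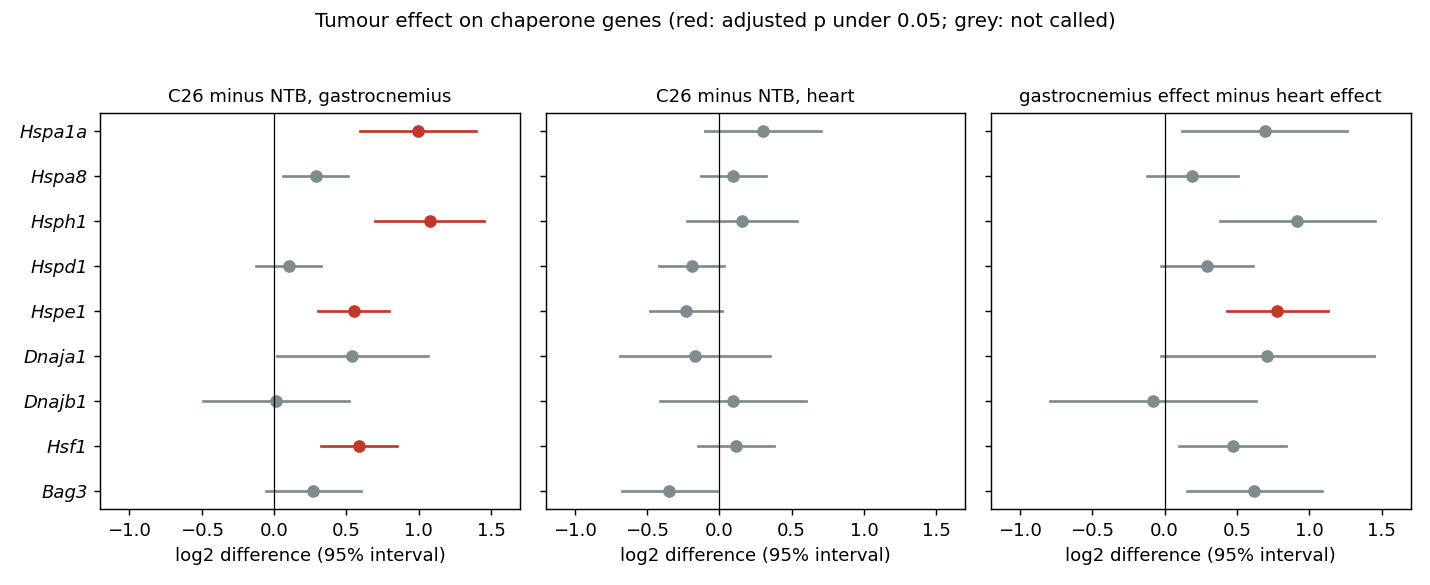
Change of each gene on the log2 scale with its 95% interval, C26 minus NTB in gastrocnemius (left) and in heart (middle), and the gastrocnemius change minus the heart change (right); red marks an adjusted p under 0.05. In gastrocnemius Hspa1a, Hsph1, Hspe1 and Hsf1 are red, in heart no gene is, and in the difference only Hspe1 is.

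C26 gastrocnemius array 3 stood apart from the other arrays of its group. It was the lowest of its group for 8 of the 9 genes, and the median deviation of the 9 genes from the group mean was -0.24 on array 3, against 0.14 on array 1 and 0.07 on array 2. Array 1 was the highest of the group for 8 genes. In NTB gastrocnemius array 2 was the highest for 9 of 9 genes, and in C26 heart array 1 was the lowest for 8 of 9, with a median deviation of -0.10. The median over all rows of the array was 5.93, 5.98 and 6.09 on C26 gastrocnemius arrays 1 to 3 and 5.98, 5.96 and 6.01 on NTB gastrocnemius arrays 1 to 3. Without C26 gastrocnemius array 3, 6 of the 9 genes rose, and the share of all genes that rose was larger too, at 11.5%. Hsph1 was then at 1.30 ± 0.14, Hspa1a at 1.19 ± 0.17, Hsf1 at 0.69 ± 0.11 and Hspe1 at 0.67 ± 0.10. Dnaja1 (0.77 ± 0.23, adjusted p = 0.0299, limma) and Hspa8 (0.38 ± 0.10, adjusted p = 0.0171) were called in addition. The call of Dnaja1 is that of the row used. In its other row C26 array 3 was instead the highest of its group (7.44, 6.95 and 7.69 on arrays 1 to 3).

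**Figure D3:**
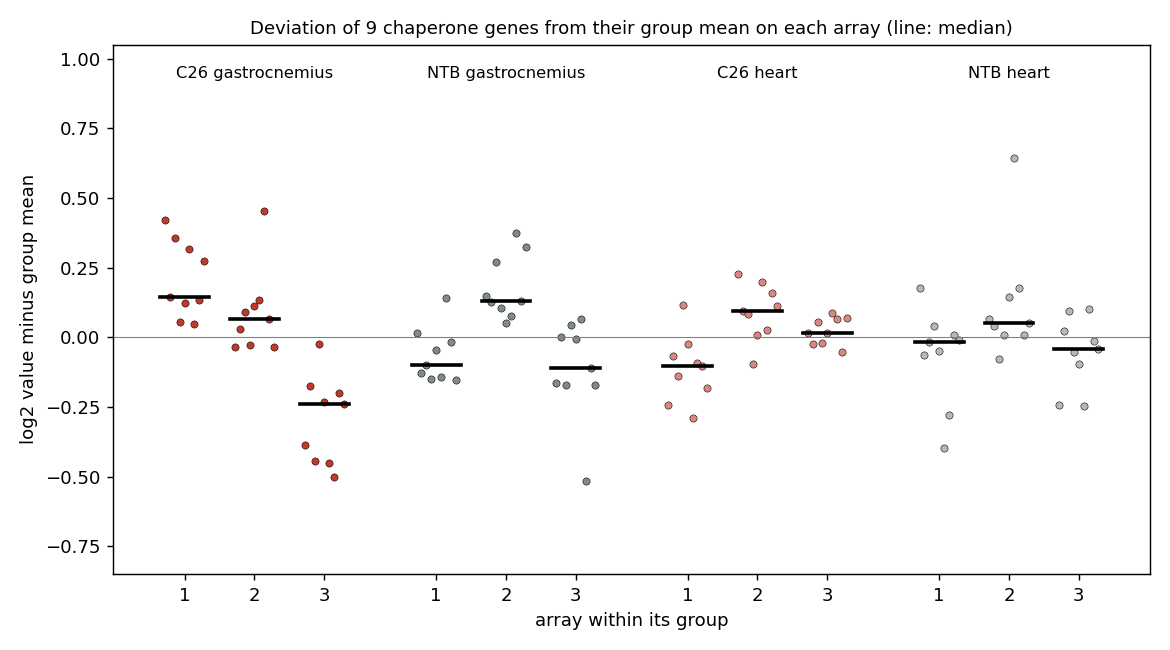
Each point is 1 of the 9 genes, as its log2 value on an array minus the mean of the group, with the median of the 9 genes as a line. On C26 gastrocnemius array 3 the median is -0.24, and on NTB gastrocnemius array 2 all points lie above 0.

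Markers of other cell types were read in the same fit, and in whole muscle fewer cells of a type and less RNA per cell cannot be told apart. Their counts in C26 gastrocnemius are to be read beside the 6.45% of all genes that rose and 5.44% that fell. Of 14 leukocyte markers 1 rose in C26 gastrocnemius, near the share of all genes. Their mean log2 value was 5.76, 6.21 and 6.67 on C26 gastrocnemius arrays 1 to 3, in the order opposite to that of the chaperones. It was 5.83, 6.02 and 5.83 on NTB gastrocnemius arrays 1 to 3. Their summed linear signal ranged from 1021 to 1889 in C26 gastrocnemius and from 1020.0 to 1322 in NTB gastrocnemius, so that the groups overlapped. Of 10 fibroblast markers 1 rose and 4 fell, with sums of 4959.7 to 6489 in C26 gastrocnemius and 8221 to 13423 in NTB gastrocnemius. Of 10 endothelial markers 4 rose (3009 to 3788 in C26, 2639.97 to 3156 in NTB). Their mean log2 value was 8.46, 8.37 and 8.13 on C26 gastrocnemius arrays 1 to 3 and 7.94, 8.19 and 7.93 on NTB gastrocnemius arrays 1 to 3, so that C26 array 3 was the lowest and NTB array 2 the highest, as for most chaperones. Of 7 red cell markers 3 rose and 1 fell (10525 to 12132 in C26, 5289.95 to 5914 in NTB). In C26 heart 2.14% of all genes rose and 1.10% fell. There 5 of 14 leukocyte markers rose, with sums of 4655 to 4743 in C26 heart and 2441 to 2848 in NTB heart. Of 10 fibroblast markers 1 rose and 0 fell in heart (sums 11505.5 to 12456.6 in C26, 8640 to 9198 in NTB). Of 12 heart muscle markers 0 rose and 1 fell there (68003 to 75047 in C26, 80508 to 82986 in NTB). Of 10 endothelial markers 1 rose and 0 fell, and of 7 red cell markers 0 rose and 0 fell. Of 12 markers of skeletal muscle fibres 0 rose and 3 fell in C26 gastrocnemius (sums 99975 to 115334 in C26, 128210 to 134883 in NTB). Their mean log2 value was 13.00, 12.88 and 12.67 on C26 gastrocnemius arrays 1 to 3. On NTB gastrocnemius arrays 1 to 3 it was 13.28, 13.29 and 13.36. Thus C26 array 3 was the lowest, as for most chaperones, while NTB array 3 was the highest. The part of these cells and fibres in the chaperone values was not tested. As to the tissue labels, 12 of 12 heart muscle markers were higher in NTB heart than in NTB gastrocnemius, against 24.8% of all genes. The markers of skeletal muscle fibres were lower in 12 of 12 cases, against 15.8% of all genes.

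In C26 heart 0 of the 9 genes rose and 0 fell in limma, against 2.14% of all genes that rose and 1.10% that fell, and at an unadjusted p under 0.05 0 were higher (6.77% of all genes) and 1, Bag3, lower (5.33% of all genes). All 3 C26 arrays lay below all 3 NTB arrays for 3 genes, Bag3, Hspe1 and Hspd1, against 13.4% of all genes. They lay above for Hsf1 alone, against 14.2% of all genes. Bag3 had 10.59, 10.88 and 10.84 in C26 heart, against 11.11, 11.17 and 11.08 in NTB heart. This was a change of -0.35 ± 0.15 (adjusted p = 0.37, limma), and with the heart arrays fitted alone Bag3 was called lower at the same change (adjusted p = 0.0128). Hspe1 had 10.36, 10.39 and 10.40 in C26 heart, against 10.56, 10.76 and 10.52 in NTB heart (-0.23 ± 0.12, adjusted p = 0.467, limma). Hspd1 had 10.26, 10.05 and 10.13 in C26 heart, against 10.38, 10.35 and 10.29 in NTB heart (-0.19 ± 0.11, adjusted p = 0.534, limma). None of these 3 genes was called in limma over all 12 arrays.

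Hsph1 and Hspa1a, which rose most in gastrocnemius, overlapped between C26 and NTB in heart. Hspa1a had 8.73, 9.20 and 8.99 in C26 heart, against 8.85, 8.74 and 8.43 in NTB heart, with an interval of the difference from -0.10 to 0.71. Hsph1 had 7.76, 7.98 and 7.95 in C26 heart, against 7.72, 7.66 and 7.83 in NTB heart, with an interval from -0.22 to 0.54. Hsf1 had 9.29, 9.55 and 9.34 in C26 heart, against 9.28, 9.28 and 9.26 in NTB heart, so that the groups were apart by less than the spread within C26. For Dnaja1 the 3 C26 hearts had 8.35, 8.84 and 8.73, and the NTB hearts 8.41, 9.45 and 8.56, of which array 2 lay far above the other two. Its change was -0.17 ± 0.24, and 0.15 without NTB heart array 2. Hspa8 (0.10 ± 0.10) and Dnajb1 (0.09 ± 0.24) overlapped between the groups.

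The difference between the muscles was tested as the gastrocnemius change minus the heart change, which is also a difference between cohorts. It was called positive for 1 of the 9 genes, against 1.99% of all genes, and negative for 0, against 2.02% of all genes. That gene was Hspe1 (0.78 ± 0.16, adjusted p = 0.0132, limma), which was positive in gastrocnemius and negative in heart, and its call was lost without NTB heart array 2 (0.71, adjusted p = 0.0508). Hsph1 came next (0.92 ± 0.25, adjusted p = 0.056, limma). Its adjusted p was 0.0488 with the replicate number as a block, 0.0398 with the filter on low values and 0.0173 after quantile normalization. With that block within each muscle, a setting added after seeing the data, it was 0.0111. With all rows tested it was 0.144, and 10 of the 12 fits that leave out 1 array left Hsph1 uncalled (highest adjusted p 0.149). Hspa1a (0.69 ± 0.27, adjusted p = 0.21), Bag3 (0.62 ± 0.22, adjusted p = 0.157), Hsf1 (0.47 ± 0.17, adjusted p = 0.182) and Dnaja1 (0.71 ± 0.34, adjusted p = 0.365) were not called by limma. At an unadjusted p under 0.05 the difference was positive for 5 genes and negative for 0, against 7.18% and 7.40% of all genes. Without C26 gastrocnemius array 3 it was called positive for 5 genes, namely Hspe1, Hsph1, Hspa1a, Hsf1 and Bag3, against 5.30% of all genes.

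Between the muscles of NTB mice, 2 of the 9 genes were higher in heart, against 24.8% of all genes, and 2 lower, against 15.8%. Both shares are near those of all genes, so the levels below describe single genes. As the hearts came from another cohort than the limb muscles, muscle and cohort cannot be told apart in this comparison. Bag3 was higher in NTB heart (11.11, 11.17 and 11.08) than in NTB gastrocnemius (9.53, 10.01 and 9.52), by 1.43 ± 0.15 (2.69-fold, adjusted p = 2.19e-06, limma). Hsf1 was higher in NTB heart by 0.64 ± 0.12 (adjusted p = 0.000596). Hsph1 was lower in NTB heart (7.72, 7.66 and 7.83) than in NTB gastrocnemius (8.78, 9.15 and 8.71), a log2 change of -1.14 ± 0.18 (adjusted p = 8.73e-05, limma). Hspd1 was lower by the row used here (-0.63 ± 0.11, adjusted p = 0.00017). Dnajb1 was at -0.52 ± 0.24 (adjusted p = 0.0968, limma), and with the replicate block it was called (adjusted p = 0.0489). With the block within each muscle, a setting added after seeing the data, its adjusted p was 0.00247. Across the groups Hsph1 thus ran from C26 gastrocnemius (mean 9.95) through NTB gastrocnemius (8.88) to C26 heart (7.90) and NTB heart (7.74), of which the 2 heart groups overlapped. For Bag3 the order was NTB heart (11.12), C26 heart (10.77), C26 gastrocnemius (9.96) and NTB gastrocnemius (9.69), and the 2 gastrocnemius groups overlapped.

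Several rows of the array carried the same symbol. There were 16 rows for the 9 genes, 3 each for Hspa1a and Hspa8 and 2 each for Hspd1, Hspe1 and Dnaja1, and the row with the highest mean was used above. The RefSeq gene table lists 23 pseudogene entries under names of Hspd1, 7 of Hspe1 and 1 of Dnaja1, and the deposited annotation does not say which row lies at which copy. Rows were compared in a fit of all 35556 rows, in which p values were adjusted over all rows. Both rows of Hspe1 rose in C26 gastrocnemius, by 0.55 ± 0.11 (adjusted p = 0.0096, limma) and 0.59 ± 0.11 (adjusted p = 0.00727). Of the Hspa1a rows 2 rose, by 0.99 ± 0.20 and 0.84 ± 0.19, and the third, dimmer row did not pass the test (0.15 ± 0.16, adjusted p = 0.796). Between NTB heart and NTB gastrocnemius these rows went opposite ways. The row used was not called (0.32, adjusted p = 0.26), the second was higher in heart (0.55, adjusted p = 0.0407) and the third lower (-0.45, adjusted p = 0.044). The Hspa8 rows gave 0.29, 0.34 and 0.26, none called. The Dnaja1 rows differed in pattern, since C26 gastrocnemius array 3 was the lowest of its group in the row used (8.66) and the highest in the other (7.44, 6.95 and 7.69 on arrays 1 to 3). The other Hspd1 row gave 0.13 ± 0.19 in gastrocnemius, and its difference between NTB heart and NTB gastrocnemius was not called (-0.19, adjusted p = 0.509).

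**Figure D4:**
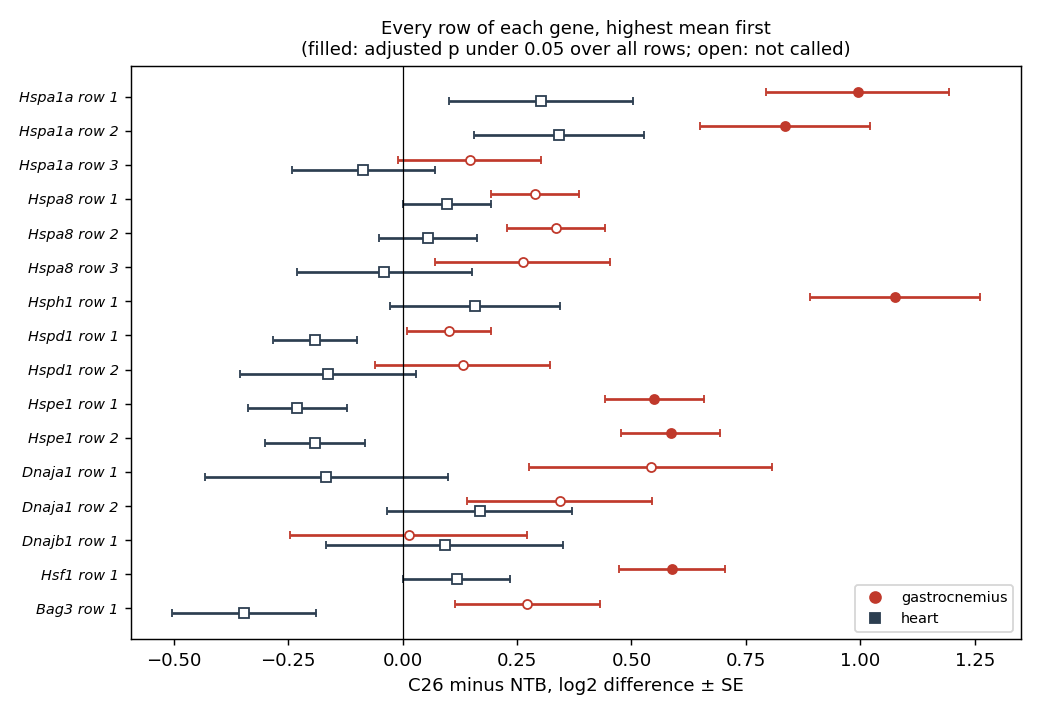
Change of each of the 16 rows on the log2 scale ± SE, C26 minus NTB, in gastrocnemius (circles) and heart (squares), from the fit of all rows; filled symbols mark an adjusted p under 0.05 over all rows. Both Hspe1 rows and 2 of the 3 Hspa1a rows are filled in gastrocnemius, and no row is filled in heart.

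A wider set of 84 chaperone genes, 83 of them measured, was read in the same fit. In C26 gastrocnemius 16 rose and 2 fell (median 0.13), which is to be read, as are the counts of the classes, beside the 6.45% of all genes that rose and 5.44% that fell. Without C26 gastrocnemius array 3, 33 of the 83 were called, against 3369 of all 19432 genes. With the gastrocnemius arrays fitted alone 5 of the 83 were called, against 906 of all 19432 genes. These 5 were Hsp90ab1, Ptges3, Cct2, Cct4 and Phb, and their share of the set was near that of all genes in the same fit. In C26 heart 0 rose and 1 fell in limma, against 2.14% and 1.10% of all genes (2 and 3 at an unadjusted p under 0.05), with a median of -0.05 and of 0.01 over all genes. HSP90, which matures kinases and steroid receptors, rose in both cytosolic forms, Hsp90ab1 by 0.59 ± 0.10 (adjusted p = 0.000754) and Hsp90aa1 by 0.72 ± 0.16, as did its cochaperone p23, Ptges3 (0.82 ± 0.15). These were 3 of 15 genes of the HSP90 class in gastrocnemius. In heart the HSP90 cochaperone Fkbp4 fell by 0.72 on the log2 scale (SE 0.12, adjusted p = 0.00279, limma).

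The cytosolic chaperonin TRiC folds actin and tubulin, and prefoldin delivers them to it. Of 14 genes of both complexes the TRiC subunits Cct4 (0.87 ± 0.14, adjusted p = 0.000576) and Cct2 (0.69 ± 0.10) rose in C26 gastrocnemius and 0 fell. Of 13 other J proteins 4 rose and 0 fell. Those with the smallest adjusted p were Dnajc2 (0.66 ± 0.13), which acts at the ribosome, Dnajb2 (0.74 ± 0.15) and Dnajb6 (0.55 ± 0.13), mutated in a muscular dystrophy of humans, and the other was Dnajb4 (0.62 ± 0.15). Of 6 genes grouped here as heat shock factors and regulators, Hsf2 (0.70 ± 0.14), Akap8 (0.50 ± 0.10) and Hsf4 (0.43 ± 0.12) rose. Whether Akap8 acts on heat shock factors was not tested. Hsf4 kept its call in 10 of 12 fits that leave out 1 array (highest adjusted p 0.103).

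Among the other HSP70 and mitochondrial genes few were called, and the counts of the mitochondrial class were near the shares of all genes. Of 8 further HSP70 and HSP110 genes the mitochondrial HSP70 gene Hspa9 (0.33 ± 0.10) and Hspa1l (0.72 ± 0.22), a neighbour of Hspa1a, rose in C26 gastrocnemius. Of the 12 fits that leave out 1 array, 2 kept the call of Hspa9 and 4 that of Hspa1l (highest adjusted p 0.128 and 0.194). The mean of the rows of Hspa1l gave 0.45 (adjusted p = 0.0983). Of 16 mitochondrial chaperones and proteases the unfoldase Clpx rose (0.56 ± 0.13), and prohibitin (Phb), an inner membrane scaffold, fell by 0.79 on the log2 scale (SE 0.14, adjusted p = 0.00111, limma). Of 11 cochaperones of HSP70 the HSP70-interacting protein St13 rose (0.63 ± 0.14), while the mean of its rows gave 0.39 (adjusted p = 0.129). Bag2, an inhibitor of the ubiquitin ligase CHIP, fell by 0.53 (SE 0.16, adjusted p = 0.0474, limma), a call that 1 of the 12 fits kept (highest adjusted p 0.173).

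**Figure D5:**
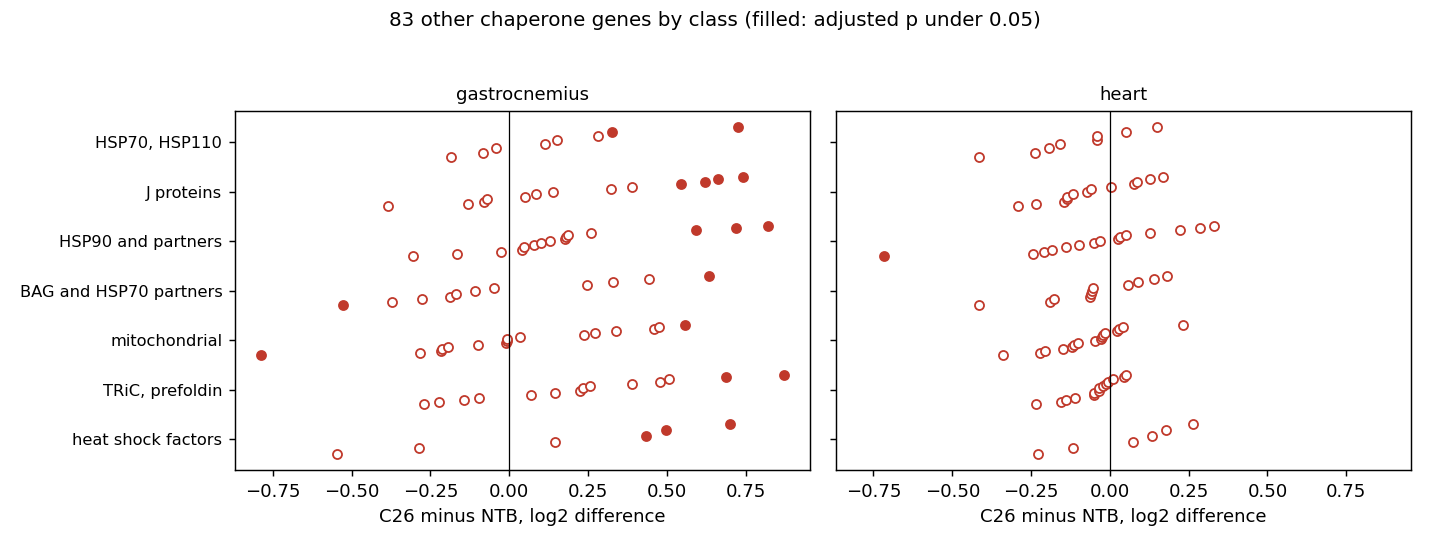
Change of each of 83 further chaperone genes on the log2 scale, C26 minus NTB, by class, in gastrocnemius (left) and heart (right); filled circles mark an adjusted p under 0.05. In gastrocnemius 16 filled circles lie right of 0 and 2 left of it, and in heart a single one lies left of 0.

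The gene whose values ran most like those of each member was found by Pearson's r over the 12 arrays after the mean of each muscle was removed. For Hspa8 it was Hsp90aa1 (r = 0.97), and for Hspe1 it was Hsf2 (r = 0.97), both of the wider chaperone set. For Hsph1 it was Mta2 (r = 0.99), for Hsf1 Leng8 (r = 0.99), for Hspa1a Smndc1 (r = 0.98) and for Bag3 Mitf (r = 0.93). For Dnajb1, Dnaja1 and Hspd1 it was Glmp, Ccdc127 and Sema6a, at r = 0.94, 0.94 and 0.91. Among the members, after group means were removed, r was 0.88 between Hsph1 and Bag3 and 0.87 between Hsph1 and Hsf1, while Hspd1 lay between -0.12 and 0.29 with the others. All these values share the 12 arrays and their scaling, C26 gastrocnemius array 3 included, and are given as a description.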

How the data were processed

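Expression was measured on 1-colour Affymetrix MoGene-1_0-st-v1 arrays from total RNA, of which 250 ng per sample was labelled, per the labels' protocols. The values used are the log2 expression values deposited by the authors. Per the submitters' processing notes, RMA, GCOS, Partek and build mm8 were used, with neither version nor role stated, and whether the 12 arrays were normalized together is not given in the sources used here. The log2 scale was inferred from their range. A second deposited table gave gene symbols and accessions, both cut to 7 characters; its 12 columns of values were not used because their names are not those of the samples. These names hold letter codes of unstated meaning that differ between columns and were not matched to samples here; a batch effect behind them was not tested. Cut symbols were named where 1 gene of the RefSeq table (GRCm38.p6) matched symbol and accession starts, and the row with the highest mean was kept for each of 19432 genes.

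One limma model (R 4.3.3, limma 3.58.1) with 4 group means was fitted to all 12 arrays, with a trend in the variance (8 residual degrees of freedom, to which the prior added 6.8 at the median), tests two-sided, and no filter. The number of arrays limits the precision. The model was tested on simulated data with noise drawn independently for each gene and array. Shifts shared by many genes of an array were not simulated, so that test does not cover them. Alternatives were no trend, each muscle alone, quantile normalization, a filter at a mean log2 value of 6, all rows, the mean of rows, array weights, the replicate number as a block and leaving out each array. Using the dimmest member row, and the block within each muscle, were added after seeing the data. The deviations of same-numbered arrays correlated at 0.31, 0.33 and 0.50 in gastrocnemius and at 0.09, -0.04 and 0.02 in heart. Arrays that share a replicate number came from different mice, since C26 and NTB mice differ and hearts and limb muscles are from different cohorts. Whether these numbers of the labels mark pairs of another kind was not tested.

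Named were all members, up to 3 called genes with the smallest adjusted p per class of the wider set in each tumour comparison, and the nearest gene by correlation. The members and lists were chosen with earlier results of these data known.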

Additional observations from a re-analysis of the deposited data

Results flagged for a closer look

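The change of Hspe1 differed between the muscles. It was 0.55 in gastrocnemius and -0.23 in heart (C26 minus NTB, log2), and the test of the difference gave 0.78 ± 0.16 (adjusted p = 0.0132, limma). Without NTB heart array 2 it was 0.71 (adjusted p = 0.0508), and the second row of Hspe1 gave 0.78. Muscle and cohort cannot be told apart.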

How the results depend on the processing

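A separate fit per muscle called 906 genes for gastrocnemius, with 2 members and 5 of the wider chaperone set, and 2212 genes for heart, with 1 member and 4 of the wider set. Array weights called 4251 genes in gastrocnemius, 2076 in heart and 2440 for the difference of effects, with 36, 3 and 25 genes of the wider set and 5 members for the difference. The replicate block called 2 members for the difference. Within each muscle the block called 1014 genes in heart and 1378 for the difference, with 2 members and 13 of the wider set for the difference, and it changed no other count of member calls by over 1.5 times. For the difference, quantile normalization called 2 members and 11 of the wider set, the filter 2 members, and all rows tested 4 of the wider set. Leaving out 1 array gave 14 to 33 calls in the wider set in gastrocnemius, 328 to 1144 genes in heart, and 465 to 1617 genes, 0 to 5 members and 1 to 21 of the wider set for the difference. The causes were not tested.

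Of the values reported for single genes, the signs that turned belonged to values that were not called in the report. Dnajb1 was at -0.0308 in gastrocnemius after quantile normalization and -0.24 to 0.26 without 1 array, -0.0473 to 0.18 in heart without 1 array, and for the difference 0.31 with array weights and -0.34 to 0.17 without 1 array. In heart the dimmest row gave -0.0858 for Hspa1a, -0.0402 for Hspa8 and 0.17 for Dnaja1, and the mean of rows 0.00086 for Dnaja1, which lay between -0.37 and 0.15 without 1 array. Between NTB muscles the dimmest row gave -0.45 for Hspa1a, itself called lower in heart (adjusted p = 0.0235, limma), and -0.0636 for Dnaja1. There Hspe1 was at -0.0316 after quantile normalization and -0.056 to 0.0648 without 1 array, and Dnaja1 at -0.0759 to 0.44 without 1 array.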

Other observations

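The classes of the wider chaperone set were also read between the muscles of NTB mice, where 24.8% of all genes were higher and 15.8% lower in heart; the genes named were chosen after their values were seen. In this comparison too, muscle and cohort cannot be told apart. Of the 83 genes 12 were higher and 30 lower in NTB heart. Of the 14 TRiC and prefoldin genes 0 were higher and 7 lower in NTB heart than in NTB gastrocnemius (median -0.46, against 0.05 over all genes). The lower ones included the TRiC subunits Cct8 (-1.58 ± 0.13, adjusted p = 1.13e-07, limma), Cct7 (-1.10 ± 0.12), Tcp1 (-0.99 ± 0.13) and Cct6a (-0.91 ± 0.13). Cct2 and Cct4, which rose in C26 gastrocnemius, were not called between NTB muscles (-0.15 ± 0.10 and -0.31 ± 0.14). Of 15 genes of the HSP90 class 0 were higher and 6 lower in NTB heart. Of 8 further HSP70 and HSP110 genes 2 were higher and 1 lower (median 0.31), of 16 mitochondrial genes 5 and 6, and of 11 HSP70 cochaperones 1 and 2. Of the 6 genes grouped as heat shock factors and regulators 2 were higher and 1 lower. Of 13 J proteins 2 were higher and 7 lower, and the higher ones included Dnajb4 (1.01 ± 0.15), which also rose in C26 gastrocnemius (0.62 ± 0.15, adjusted p = 0.0145, limma).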
